A study of Bos taurus with 11 samples.

Results

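MHC class II molecules are the surface proteins with which B cells, monocytes and dendritic cells show peptides from engulfed material to CD4+ T cells. Each is a pair of an alpha and a beta chain, DR or DQ in cattle, which is held by the invariant chain CD74 in the endoplasmic reticulum and is loaded with peptide in the endosome by DM, a process that DO tempers. CIITA is the coactivator that switches these genes on together, and IFI30 (also known as GILT) reduces disulfide bonds of proteins on their way to becoming peptides. In cattle the class II genes lie in blocks that are far apart on the same chromosome, DQ is duplicated on some haplotypes, and DRB3 and the DQ genes differ much in sequence between animals.

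The genes described here are BOLA-DRA, BOLA-DRB3, BOLA-DQA1, BOLA-DQB, BOLA-DMA, BOLA-DMB, BOLA-DOA, CD74, CIITA and IFI30, 10 genes in all, and their probes were taken by the gene name the array gives, present or older. They had 30 of the 43653 probes on the array, and the rule itself uses no measured value. Each probe is given apart, because a probe of 60 bases designed on a reference sequence can match an allele more or less well, and which alleles these animals carry was not tested. The RNA came from PBMCs, the mononuclear fraction of blood that holds lymphocytes and monocytes, of female cattle: 5 Ladakhi samples from high altitude and 6 Sahiwal samples, called basal, from low altitude. Samples are numbered as in their titles, and nothing in the labels says more about the animals, so p-values measure only the spread between these samples.

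A level below is the log2 of a probe's processed signal minus the 75th percentile of that array over the 2703 probes detected on all 11 arrays, and a difference is Ladakhi minus Sahiwal. Levels of different probes cannot be set against each other. The Ladakhi arrays were dim: 9.69% to 15.1% of spots lay well above background there, against 40.0% to 47.0% on the Sahiwal arrays, and the lowest level at which a spot still did so was between -4.25 and -3.03 on the Ladakhi arrays and between -8.91 and -7.37 on the Sahiwal arrays. A probe entered the limma test if 4 or more arrays of 1 breed showed it well above background (17862 probes), and "measured" below means that both breeds did (4046 probes). Each of the 4 slides held a single breed, and the breeds were read on different scanners, so breed, altitude, slide and scanner cannot be told apart.

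Several DQ probes cover nearly the same bases of related genes, and their sequences are shown first. Whether overlapping DQ probes differed from each other in their breed difference was not tested. In the first pair 33 bases overlap, and capitals mark the 3 bases at which the probes differ within the overlap.
BOLA-DQA1 A_73_P052576: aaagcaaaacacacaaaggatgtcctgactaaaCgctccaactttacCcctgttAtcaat
BOLA-DQA1 A_73_P235072: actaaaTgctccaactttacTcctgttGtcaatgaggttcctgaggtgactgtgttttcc
Another BOLA-DQA1 probe shares 46 bases with one for BOLA-DQA2, another DQ alpha gene, and the 5 differing bases are in capitals.
BOLA-DQA1 A_73_P245636: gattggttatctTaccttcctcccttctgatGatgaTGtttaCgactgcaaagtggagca
BOLA-DQA2 A_73_P039756: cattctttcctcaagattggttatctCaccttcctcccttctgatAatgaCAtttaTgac
One more overlaps a probe for BOLA-DQA3 over 36 bases with 7 differences, and both were above background in some Sahiwal animals and not in others.
BOLA-DQA1 A_73_111307: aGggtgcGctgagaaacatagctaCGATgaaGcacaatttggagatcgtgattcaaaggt
BOLA-DQA3 A_73_118124: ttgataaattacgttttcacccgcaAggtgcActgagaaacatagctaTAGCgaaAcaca
On the beta side, the BOLA-DQB probe and one that the array names BLA-DQB overlap over 41 bases with 4 differences.
BOLA-DQB A_73_P052096: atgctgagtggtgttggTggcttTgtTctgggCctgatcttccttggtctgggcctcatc
BLA-DQB A_73_P031816: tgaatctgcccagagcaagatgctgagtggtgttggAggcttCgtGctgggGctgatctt
The remaining sequences belong to some of the DR, DM and CD74 probes described below, and they carry no capitals because no other class II probe overlaps them.
BOLA-DRA A_73_P438206: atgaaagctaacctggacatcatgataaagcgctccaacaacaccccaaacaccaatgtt
BOLA-DRB3 A_73_P062206: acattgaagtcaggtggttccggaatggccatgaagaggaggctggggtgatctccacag
BOLA-DRB3 A_73_P045206: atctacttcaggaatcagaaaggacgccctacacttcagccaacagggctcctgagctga
BOLA-DMA A_73_104988: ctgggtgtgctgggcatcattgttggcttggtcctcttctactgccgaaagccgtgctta
CD74 A_73_P106626: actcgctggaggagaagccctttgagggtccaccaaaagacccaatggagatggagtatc
On the files' build, HGSC Btau_3.1, the BOLA-DMA, BOLA-DMB and BOLA-DOA probes lie on chromosome 23 between 7454520 and 7592761, and the placed BOLA-DQA1, BOLA-DQB and BOLA-DRA probes between 26223883 and 26441877. All 3 BOLA-DRB3 probes and 1 BOLA-DQA1 probe are on unplaced scaffolds, and 3 BOLA-DQA1 probes have no position in the files. The CD74 and IFI30 probes lie on chromosome 7 and the CIITA probes on chromosome 25. The exon or untranslated region of a probe was not looked up, since no annotation of this build was used here.

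Among the 13 probes measured in both breeds, which belong to 6 of the genes, 5 were lower in Ladakhi (adjusted p under 0.05) and 0 higher. Of all measured probes, 14.6% were lower in Ladakhi and 18.1% higher. The 5 were probes of BOLA-DRA (2), BOLA-DRB3, BOLA-DQA1 and BOLA-DMB. The median difference of the 13 was -1.003 on the log2 scale, against -0.02 over all measured probes, and 11 of the 13 differences were below 0. No measured probe of CD74 or IFI30 passed the test. The count of 5 moved with the scaling, to 1 after quantile and 0 after cyclic loess normalization, and to between 2 and 7 with 1 array left out: it was 2 without Ladakhi 1 or Sahiwal 2, 4 or 6, and 3 without Ladakhi 2 or Sahiwal 1 or 5. The groups did not overlap at 1 of the 13, against 9.64% of all measured probes.

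A further 12 probes were tested only because they lay above background in Sahiwal, and 10 of these were lower in Ladakhi. Since such a probe passes through the breed in which it is bright, this count is no support for a lower level in general. Of all tested probes that were above background on 1 to 3 Ladakhi arrays 26.6% were lower in Ladakhi, and of those on 0 Ladakhi arrays 15.1%. That makes 15 of 25 tested probes lower and 0 higher, where the shares over all tested probes were 17.4% and 24.4%. The other 5 of the 30 probes, for BOLA-DQA1, BOLA-DQB (2), BOLA-DMB and CIITA, were above background on too few arrays to be tested.

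**Figure D1:**
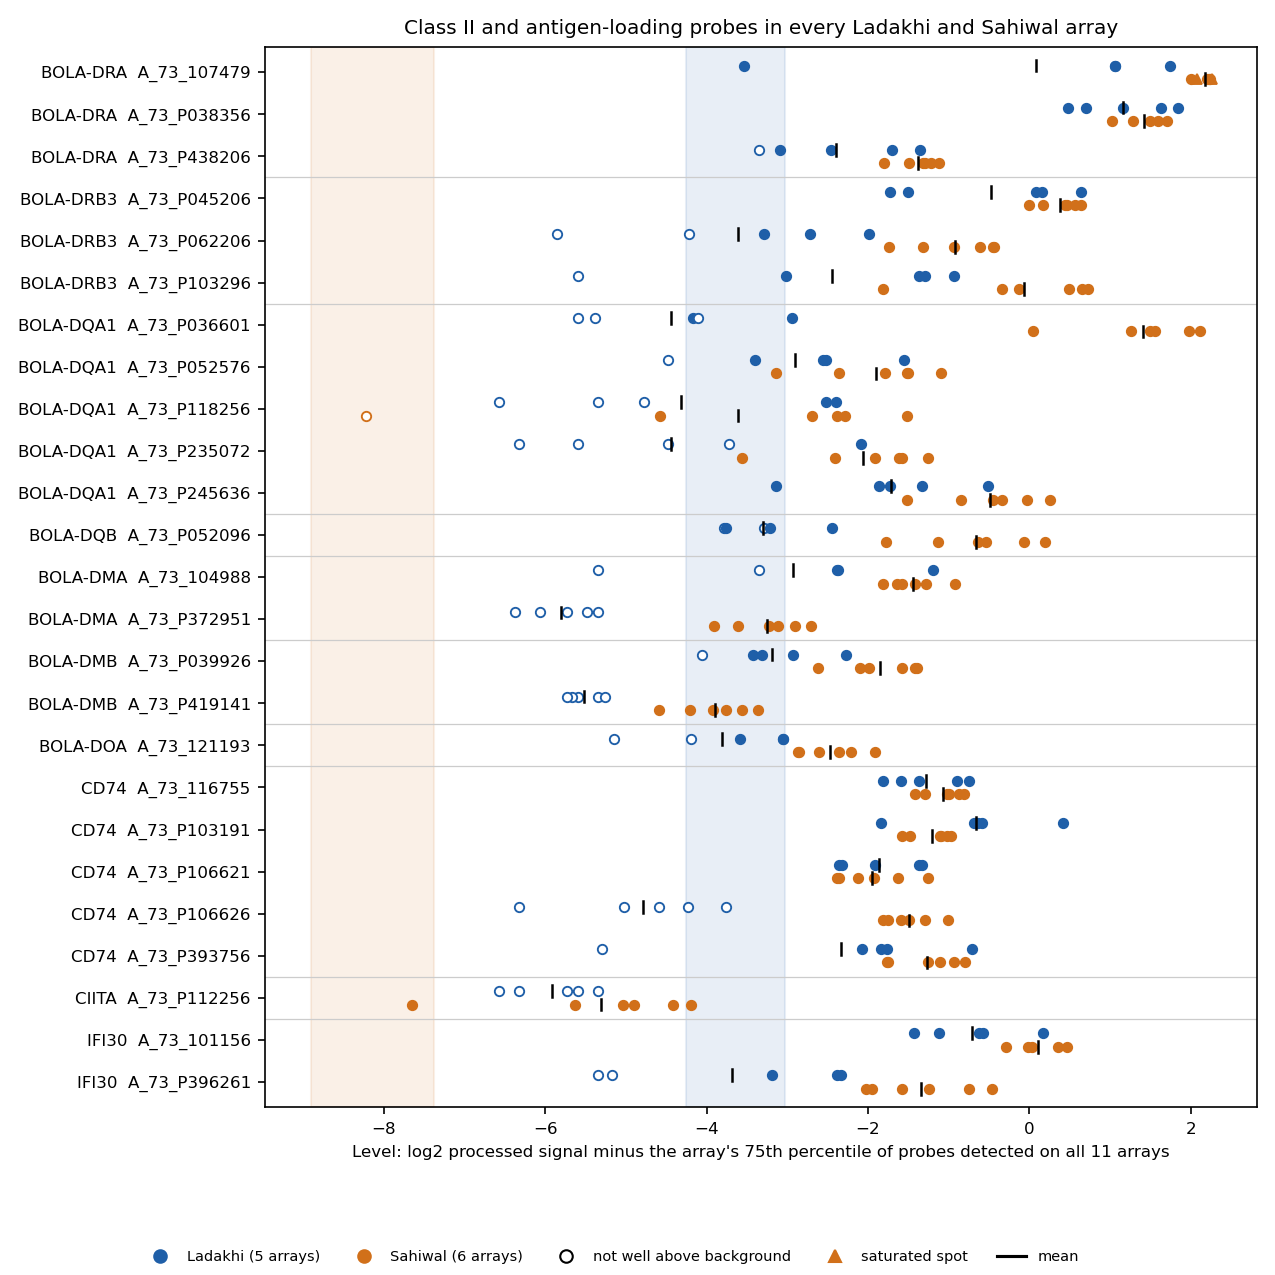
Levels (log2 processed signal minus the array's 75th percentile of probes detected on all 11 arrays) of the 25 tested probes in each Ladakhi (blue) and Sahiwal (orange) array. Open circles are spots not well above background, triangles saturated spots, black bars means, and the shaded bands show where the detection limits of the arrays lay (Ladakhi -4.25 to -3.03, Sahiwal -8.91 to -7.37).

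BOLA-DRA encodes the DR alpha chain, which varies little between animals. At A_73_P438206, the probe whose sequence is shown above, the Ladakhi levels were -3.09, -3.36, -2.45, -1.36 and -1.70 in animals 1 to 5, that of animal 2 not well above background. The Sahiwal levels ran from -1.80 through a median of -1.31 to -1.12. The groups overlapped, with Ladakhi 4 and 5 inside the Sahiwal range, and the mean was lower by 1.02 (SE 0.36, limma adjusted p = 0.0356), a 2.02-fold difference. The call was lost without Ladakhi 1, 2 or 3 or without Sahiwal 1, 2, 4 or 6, with adjusted p between 0.0568 and 0.0946, and under quantile and cyclic loess scaling (0.111 and 0.307).

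A_73_P038356 of the same gene did not separate the breeds. Its Ladakhi levels were 1.64, 0.70, 1.16, 0.48 and 1.85, and its Sahiwal levels ran from 1.02 through 1.49 to 1.70 over 5 arrays, the spot of Sahiwal 4 being marked as an outlier. The difference was -0.25 with a 95% interval from -0.96 to 0.45 (adjusted p = 0.553), and it changed sign under cyclic loess scaling (0.12). Leaving out Ladakhi 4 gave -0.08, and Ladakhi 5 gave -0.43.

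The remaining BOLA-DRA probe, A_73_107479, owed its size to 1 animal. Its Ladakhi levels were 1.74, 1.06, 1.06 and -3.54 in animals 2 to 5, with the spot of animal 1 marked as an outlier, and its Sahiwal levels ran from 2.00 to 2.26 with 2 saturated spots. All 6 Sahiwal arrays lay above all 4 Ladakhi arrays, and the difference was -2.09 (SE 0.78, adjusted p = 0.0457). Ladakhi 5 had a processed signal of 103 there, where the others had 1653 to 3812, while at A_73_P038356 the same animal had the highest Ladakhi level. Without it the difference was -0.88 (adjusted p = 0.0298), and the call was lost without Ladakhi 1 or any single Sahiwal array (adjusted p from 0.0517 to 0.0703), and under quantile (0.105) and cyclic loess scaling (0.248). It was also lost with outlier spots kept (0.0795), in the authors' value table (0.0693), among measured probes alone (0.0779) and with the replicate block (0.0619).

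BOLA-DRB3 encodes the DR beta chain, the polymorphic partner that sets which peptides are bound. Its probe A_73_P062206 was among the members that differed most. The Ladakhi levels were -1.99, -4.22, -2.71, -3.28 and -5.85, 3 of them well above background, and the Sahiwal levels ran from -1.74 through -0.77 to -0.44. No Ladakhi array reached the lowest Sahiwal array, and the mean was lower by 2.70 (SE 0.56, adjusted p = 0.00206). With dim spots raised to the detection limit of their array the difference was -2.09, and the call was kept under every alternative in which it was fitted (26 of 26).

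At A_73_P103296 the Ladakhi levels were -5.59, -1.37, -3.02, -0.94 and -1.29, and the Sahiwal levels ran from -1.815 through 0.18 to 0.72. Ladakhi 1 was not above background at this probe, and Sahiwal 6 was the lowest of its breed and below 3 Ladakhi arrays. The mean was lower in Ladakhi by 2.37 (SE 0.74, adjusted p = 0.0195), by 1.58 without Ladakhi 1, and the call was lost under quantile (adjusted p = 0.0955) and cyclic loess scaling (0.0976).

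The last BOLA-DRB3 probe, A_73_P045206, showed Ladakhi as a split group. The levels were 0.16, -1.50, -1.73, 0.64 and 0.08 in Ladakhi and ran from 0.00 through 0.45 to 0.64 in Sahiwal. Ladakhi 2 and 3 lay below every Sahiwal array and the other 3 Ladakhi arrays within the Sahiwal range. The difference of -0.85 (SE 0.41, adjusted p = 0.112) did not pass, and without Ladakhi 4 it did (adjusted p = 0.0398). Ladakhi 5, the lowest of all at A_73_P062206, was inside the Sahiwal range here.

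BOLA-DQA1, a DQ alpha chain, held the largest difference among the members. At A_73_P036601 the Ladakhi levels were -5.59, -2.95, -4.16, -4.10 and -5.39, only those of animals 2 and 3 well above background, and the Sahiwal levels ran from 0.05 through 1.53 to 2.11. The breeds did not come near each other: processed signals were 21.2 to 134 in Ladakhi and 6664 to 40910 in Sahiwal. The mean was lower in Ladakhi by 5.85 (SE 0.48, adjusted p = 5.07e-06), by 4.97 with dim spots raised to the detection limit, and the call was kept under all 26 alternatives fitted.

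A probe for BOLA-DQA3, A_73_P245461, which was singled out after its values were seen, shares 51 bases with A_73_P036601 at 96.1% identity (2 differences). It behaved alike in direction: -5.59, -1.47, -0.75, -3.06 and -3.19 in Ladakhi and 1.01 to 2.25 in Sahiwal, lower by 4.52 (SE 0.65, adjusted p = 0.000262), or by 4.06 with dim spots raised to the limit. The spot of Ladakhi 1 was not above background and 1 Sahiwal spot was saturated. A shared or near-identical transcript can bind both probes, so these are not separate observations.

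The other BOLA-DQA1 probes differed less, though they report on the same gene name. At A_73_P245636 the Ladakhi levels were -3.14, -1.72, -0.51, -1.33 and -1.86 and the Sahiwal levels ran from -1.52 through -0.40 to 0.26. Ladakhi 3 lay in the middle of the Sahiwal range and Ladakhi 1 was the lowest of all. The mean was lower by 1.22 (SE 0.44, adjusted p = 0.0363), a call lost without Ladakhi 1, 2 or 5 or Sahiwal 2, 4, 5 or 6 (adjusted p from 0.0579 to 0.0988) and under quantile and cyclic loess scaling (0.0923 and 0.256).

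The first sequence pair gave unlike detection in Ladakhi. At A_73_P052576 the Ladakhi levels were -4.48, -2.53, -1.56, -2.56 and -3.40, 4 of 5 above background, and at A_73_P235072 they were -5.59, -3.72, -2.08, -4.48 and -6.32, with only animal 3 above background. In Sahiwal both probes were above background in 6 of 6, and animal 3 was lowest and animal 6 highest at each. The differences were -1.003 (SE 0.49, adjusted p = 0.113) and -2.38 (SE 0.64, adjusted p = 0.00953). With dim spots raised to the detection limit they were -0.76 and -1.10. A_73_P052576 passed without Ladakhi 3 (adjusted p = 0.0355), and A_73_P235072 was lost under normexp values (-0.70). Ladakhi 3 was the highest Ladakhi animal at both probes and at A_73_P245636.

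The BOLA-DQB beta chain probe A_73_P052096 was lower in every Ladakhi animal than in any Sahiwal animal. The Ladakhi levels were -3.29, -3.78, -3.21, -2.45 and -3.76, 3 of 5 above background, and the Sahiwal levels ran from -1.78 through -0.59 to 0.19. The mean was lower by 2.64 (SE 0.38, adjusted p = 0.00025), and by 2.49 with dim spots raised to the limit. The call was kept under all 26 alternatives fitted. Both other BOLA-DQB probes were above background on 0 arrays of either breed.

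The overlapping BLA-DQB probe A_73_P031816, also chosen after its values were seen, was well above background on all arrays. Its levels were 0.04, -1.52, -1.86, -0.26 and -2.29 in Ladakhi and ran from -1.25 to 1.03 in Sahiwal, where animal 6 was lowest. The breeds overlapped, and the difference of -1.30 (SE 0.51) missed the threshold (adjusted p = 0.0521). Without Sahiwal 6, Ladakhi 1 or Ladakhi 4 it passed.

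Some DQ probes were on in some animals and off in others, which a mean does not describe. BOLA-DQA2 A_73_P106611 had levels of 0.18, -0.63, -0.05, -0.0011 and 0.19 in Ladakhi, -0.48, -2.09 and -1.05 in Sahiwal 1, 2 and 3, and -10.23, -10.36 and -9.69 in Sahiwal 4, 5 and 6, which were not above background. BLA-DQB A_73_P109256 followed the same animals: -1.01, -1.37, -0.97, -0.38 and -1.33 in Ladakhi, 0.31, -2.63 and -0.43 in Sahiwal 1 to 3, and -10.27, -10.40 and -9.69 in Sahiwal 4 to 6. BOLA-DQA3 A_73_118124 was on in the same 3 Sahiwal animals (-3.67, -3.53 and -5.53) and off in Sahiwal 4 to 6. It was not above background in any Ladakhi animal, but the Ladakhi detection limits lay between -4.25 and -3.03. A Ladakhi level like these Sahiwal levels could therefore go unseen on some or all of those arrays. Sahiwal 1 and 2 were on 1 slide and Sahiwal 3 to 6, with all 3 animals without signal, on another, and the part of the slide was not tested.

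Of the 43653 probes, 6 lay above background in exactly 3 Sahiwal animals with a gap of at least 4 on the log2 scale to the other 3. The size of the gap was set after the values were seen, and on-off patterns in other numbers of animals were not counted. The count is therefore a description and does not measure how rare such patterns are. In 5 of the 6 the animals with signal were Sahiwal 1, 2 and 3, and the 5 were these 3 DQ probes and probes for F3 and KRT17. The fitted difference of A_73_P106611, 5.59 higher in Ladakhi (SE 1.76, adjusted p = 0.0206), therefore averages Sahiwal animals with and without signal. Its size comes mainly from the animals without signal: the Ladakhi mean was -0.06, beside -0.48, -2.09 and -1.05 in Sahiwal 1, 2 and 3.

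Among the BOLA-DQA1 probes, on-off patterns fell on other animals. At A_73_P118256 Ladakhi 1 and 5 had levels of -2.40 and -2.52 and Ladakhi 2, 3 and 4 were not above background, while in Sahiwal the levels were -2.29, -4.58, -2.70, -1.51 and -2.38 in animals 1 to 5 and -8.22, not above background, in animal 6. The difference of -0.71 had an interval from -3.02 to 1.60 (adjusted p = 0.619), and with dim spots raised it was 0.35. A_73_111307 was above background in Sahiwal 1, 3 and 4 (-5.03, -6.08 and -4.28) and in no other animal, so it was not tested. These levels lie below the lowest Ladakhi detection limit, -4.25, so the same levels would not be seen in Ladakhi. Ladakhi 4 and 5, not above background, had -3.51 and -4.05, so this probe shows an on-off pattern only within Sahiwal. A DQB probe without a gene symbol, A_73_101349, was on in all 5 Ladakhi animals and in Sahiwal 1, 2, 3 and 5, and off in Sahiwal 4 and 6 (-8.17 and -9.69).

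**Figure D2:**
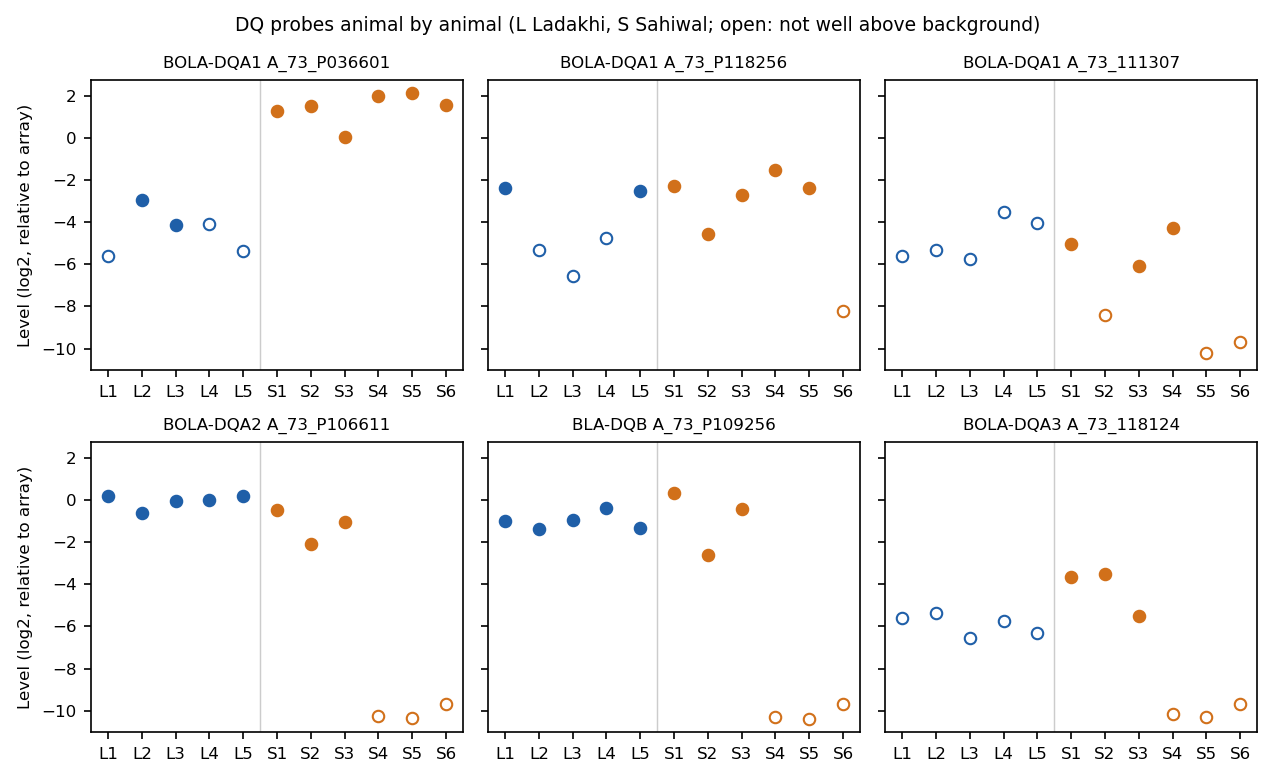
Levels (log2, relative to the array's 75th percentile of probes detected on all 11 arrays) of 6 DQ probes in each animal, L for Ladakhi 1 to 5 and S for Sahiwal 1 to 6, with open circles where the spot was not well above background. BOLA-DQA1 A_73_P036601 separates the breeds, while the lower row has the same 3 Sahiwal animals, 4 to 6, at background in each panel.

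The peptide loaders BOLA-DMA and BOLA-DMB lie in the other class II block. For BOLA-DMB, A_73_P039926 had Ladakhi levels of -2.93, -4.05, -3.42, -2.27 and -3.31 and Sahiwal levels from -2.62 through -1.79 to -1.39. Only Ladakhi 4 reached into the Sahiwal range. The mean was lower by 1.35 (SE 0.35, adjusted p = 0.00753), and the call held with each array left out (adjusted p up to 0.0213) and ended only under cyclic loess scaling before its shift was taken off (0.0791).

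BOLA-DMA A_73_104988 gave -3.35, -5.35, -2.38, -1.19 and -2.38 in Ladakhi, those of animals 1 and 2 not above background, and -1.81 through -1.50 to -0.92 in Sahiwal. The groups overlapped at Ladakhi 4. The mean was lower by 1.49 (SE 0.55, adjusted p = 0.0427), by 0.88 without Ladakhi 2 (adjusted p = 0.0827), and the call was also lost without Ladakhi 1 or any single Sahiwal array (adjusted p from 0.0518 to 0.0889) and under quantile (0.171), cyclic loess (0.231) and normexp values (0.0545).

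A further pair of DM probes was above background on 0 Ladakhi arrays, which leaves only a bound. For BOLA-DMA A_73_P372951 the measured means were -5.80 in Ladakhi and -3.25 in Sahiwal (adjusted p = 7.07e-05). For the means of these samples the level was at least 1.27-fold lower in Ladakhi. That bound comes from the fit with dim spots raised to the limit, where the difference of -0.35 did not pass (adjusted p = 0.317). The bound is thus not told apart from no difference. Under normexp values the difference was -0.19 (adjusted p = 0.479), which did not pass either. This bound sets the mean of the bright breed against the dim breed's mean of the detection limit or the spot's own signal, whichever was higher. For BOLA-DMB A_73_P419141 the means were -5.52 and -3.90 (adjusted p = 0.000703), but the Sahiwal mean was below the Ladakhi limit, so the data give no fold, and with dim spots raised the difference turned to 0.30.

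BOLA-DOA, the alpha chain of the DO molecule that holds DM back, had 1 probe, A_73_121193. The Ladakhi levels were -5.15, -4.19, -3.05, -3.06 and -3.59, 3 of 5 above background, and the Sahiwal levels ran from -2.87 through -2.49 to -1.91. No Ladakhi array reached the lowest Sahiwal array, and the mean was lower by 1.34 (SE 0.38, adjusted p = 0.0126). The difference was -0.73 with dim spots raised. The call was lost under quantile, cyclic loess and normexp values (adjusted p up to 0.11) and held with each array left out.

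BOLA-DOB, the DO beta chain, was not above background in any Ladakhi animal at either of its 2 probes, while A_73_P251706 lay above background in 6 of 6 Sahiwal animals at levels from -6.01 to -4.22. The highest of these lies at the lowest of the Ladakhi detection limits, -4.25, so the breeds cannot be compared. A_73_P042646 was fitted as higher in Ladakhi by 1.36 (adjusted p = 0.0103) with 0 of 5 Ladakhi arrays above background, a value that compares limits of detection.

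CD74 is the invariant chain that blocks the peptide groove until DM acts, and its 5 probes did not move together. The overlapping probes A_73_116755 and A_73_P103191 share 46 bases without a mismatch. A_73_116755 had -1.59, -1.81, -1.37, -0.75 and -0.89 in Ladakhi and -1.42 through -1.01 to -0.81 in Sahiwal, a difference of -0.22 (interval -0.81 to 0.38, adjusted p = 0.553), which changed sign under quantile (0.03) and cyclic loess scaling (0.23). A_73_P103191 had -0.63, -0.69, -1.84, 0.41 and -0.59 in Ladakhi and -1.58 through -1.10 to -0.97 in Sahiwal, a difference of 0.54 (interval -0.20 to 1.29, adjusted p = 0.226). Without Ladakhi 3 A_73_P103191 was called higher (adjusted p = 0.0385).

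A_73_P106621, placed farthest from the other CD74 probes at 61223804 to 61223863, gave -1.37, -2.36, -2.32, -1.33 and -1.91 in Ladakhi and -2.39 through -2.02 to -1.26 in Sahiwal. The groups covered the same range, with a difference of 0.09 (interval -0.58 to 0.76, adjusted p = 0.842). It passed as higher under normexp values (0.62, adjusted p = 0.0183). At A_73_P393756 Ladakhi 3 stood apart at -5.29, not above background, with the other Ladakhi arrays at -1.84, -2.07, -0.71 and -1.77 and the Sahiwal arrays from -1.76 through -1.18 to -0.79. The difference there was -1.07 (SE 0.61, adjusted p = 0.174), and -0.33 without Ladakhi 3.

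The remaining CD74 probe, A_73_P106626, whose sequence is shown above, was lower in Ladakhi by a margin that no other CD74 probe had. It was above background on 0 of 5 Ladakhi arrays, with levels of -4.23, -3.76, -4.59, -5.02 and -6.32, and on 6 of 6 Sahiwal arrays, from -1.81 through -1.54 to -1.01. The measured means were -4.78 and -1.49 (adjusted p = 7.7e-05), and the level was at least 4.29-fold lower in Ladakhi. The files place its 60 bases between 61217142 and 61218860 on chromosome 7, a stretch longer than the probe, as where a probe spans a splice junction, and likewise A_73_P393756 at 61216817 to 61217146. The call was kept under all 26 alternatives fitted.

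Whether measured probes of 1 gene differed from each other in their breed difference was tested within arrays for all 11 such pairs (exact permutation test, two-sided, Benjamini-Hochberg over the 11, chosen after the values were seen). In 1 pair they did: CD74 A_73_P103191 and A_73_P393756 stood 1.67 ± 1.003 apart in Ladakhi (SD, n = 5) and 0.06 ± 0.17 in Sahiwal (SD, n = 6), with exact p = 0.00433, the smallest the design allows, and adjusted p = 0.0476. That pair includes the low value of Ladakhi 3, but its probes stood further apart on each Ladakhi array than on any Sahiwal array. The overlapping CD74 pair, A_73_116755 minus A_73_P103191, differed by -0.76 between the breeds (exact p = 0.0433, adjusted p = 0.159), and for the 3 BOLA-DRA pairs, the BOLA-DRB3 pair and the BOLA-DQA1 pair the adjusted p lay between 0.291 and 0.552.

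**Figure D3:**
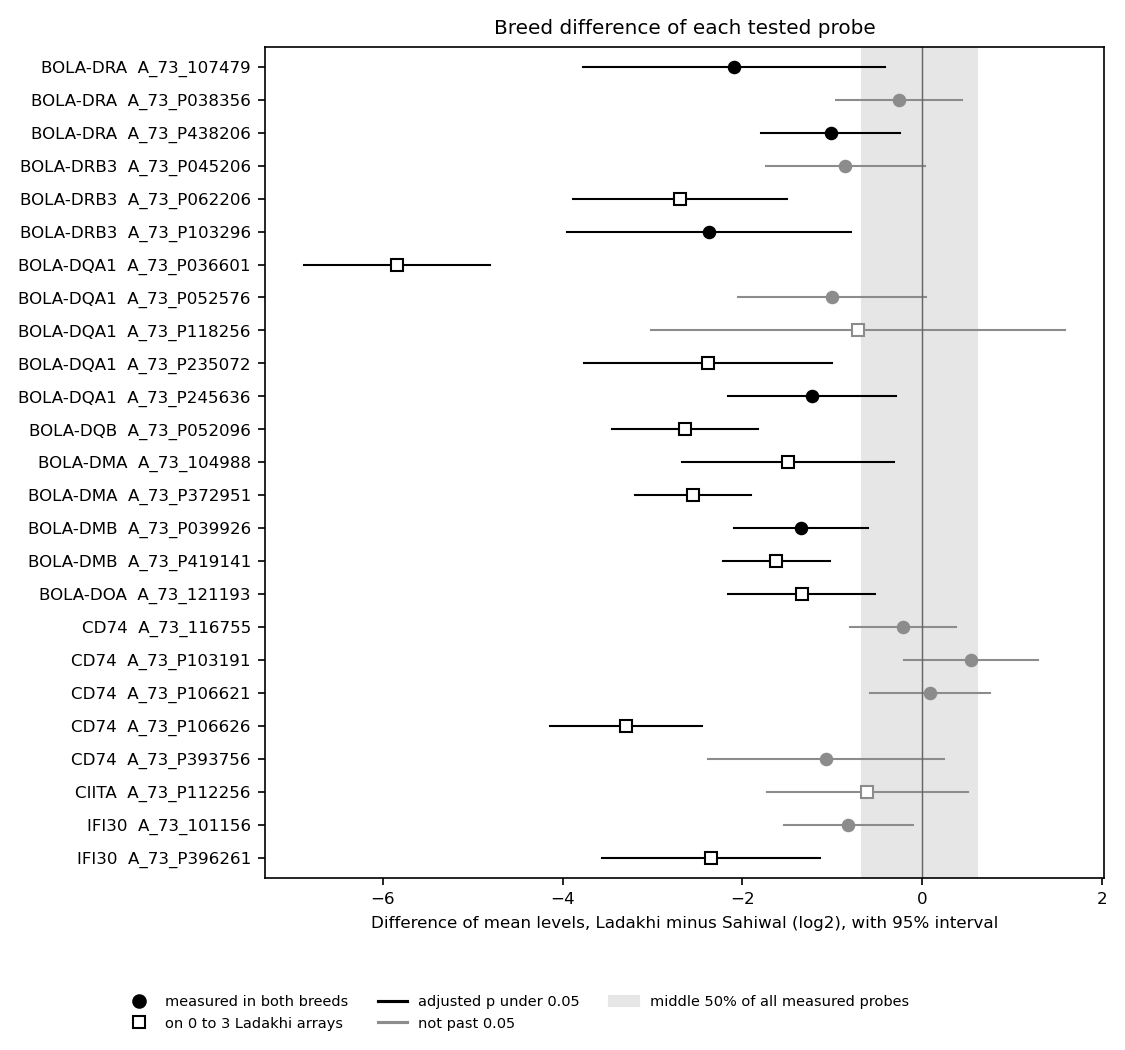
Difference of the mean levels, Ladakhi minus Sahiwal (log2), with its 95% interval for each of the 25 tested probes. Black marks passed an adjusted p of 0.05 and grey marks did not, filled circles were measured in both breeds and open squares were above background on 0 to 3 Ladakhi arrays, and the grey band holds the middle 50% of all measured probes (-0.67 to 0.61).

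CIITA, the coactivator on which class II transcription depends, was not above background in any Ladakhi animal. In Sahiwal A_73_P112256 ran from -7.65 through -4.97 to -4.19, with animal 3 lowest, and A_73_P281321 was above background in 3 of 6 animals. The Sahiwal levels lie below the lowest detection limit of the Ladakhi arrays for all but 1 animal, so CIITA in Ladakhi could be at the Sahiwal level without being seen. The fitted difference of -0.61 (adjusted p = 0.368) turned to 1.71 with dim spots raised to the limit, while it passed as lower without Sahiwal 3 (-1.08, adjusted p = 0.0281) and under quantile scaling (-2.96).

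IFI30, the thiol reductase of the endosome, gave -1.12, -1.42, -0.58, 0.16 and -0.62 in Ladakhi at A_73_101156 and -0.28 through 0.03 to 0.46 in 5 Sahiwal arrays. Ladakhi 4 lay within the Sahiwal range and the others below it. The difference of -0.82 (SE 0.33, adjusted p = 0.0619) passed in 8 of 27 alternatives, all with the same sign. At A_73_P396261 the Ladakhi levels were -2.39, -5.17, -2.34, -5.35 and -3.19, 3 of 5 above background, all below the Sahiwal range of -2.03 through -1.41 to -0.46, and the mean was lower by 2.35 (SE 0.57, adjusted p = 0.00505), a call kept under all 26 alternatives fitted.

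Over the 25 tested probes, the 15 calls held to unequal degrees. 5 kept an adjusted p under 0.05 in every alternative in which they were fitted: BOLA-DRB3 A_73_P062206, BOLA-DQA1 A_73_P036601, BOLA-DQB A_73_P052096, CD74 A_73_P106626 and IFI30 A_73_P396261. None of these 5 was measured in both breeds, since each was above background on 3 or fewer Ladakhi arrays. 14 of the 15 kept their direction in all alternatives, the exception being BOLA-DMB A_73_P419141.

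**Figure D4:**
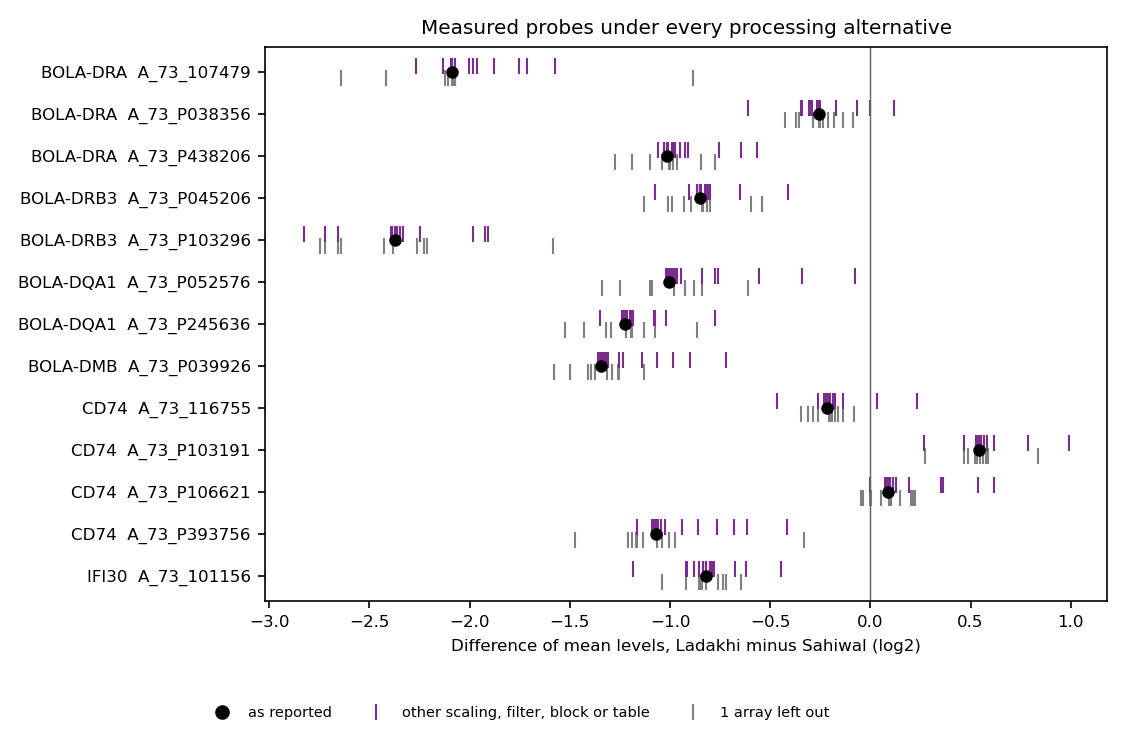
Difference of the mean levels, Ladakhi minus Sahiwal (log2), of the 13 probes measured in both breeds, as reported (circles), with another scaling, filter, block or table (purple ticks) and with 1 array left out (grey ticks). The BOLA-DRA A_73_107479 tick at -0.88 leaves out Ladakhi 5, and the ticks that cross 0 belong to BOLA-DRA A_73_P038356, CD74 A_73_116755 and CD74 A_73_P106621.

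Within Sahiwal, the same animal was low at most of these genes. Sahiwal 3 had the lowest level of its breed at 17 of the 23 member probes that were above background on at least 4 Sahiwal arrays and had no missing spot, 73.9%, while it was lowest at 29.9% of all such probes. Its median distance from the breed's median was -0.54 over the members and -0.18 over all probes. At CIITA A_73_P112256 it was 32.2 in processed signal against 274 to 518 in the other Sahiwal animals. Its array was also the dimmest of the breed, with a reference signal of 6437 against 9478 to 15140, and the part of this in the low levels was not tested.

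Within Ladakhi, animal 4 had the highest level at 9 of the 12 member probes above background on at least 4 Ladakhi arrays, while it was highest at 28.2% of all such probes. Ladakhi 2 was lowest at 5 of the 12. The exceptions for animal 4 fell on BOLA-DRA and BOLA-DQA1: at A_73_P038356 it was the lowest of its breed.

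**Figure D5:**
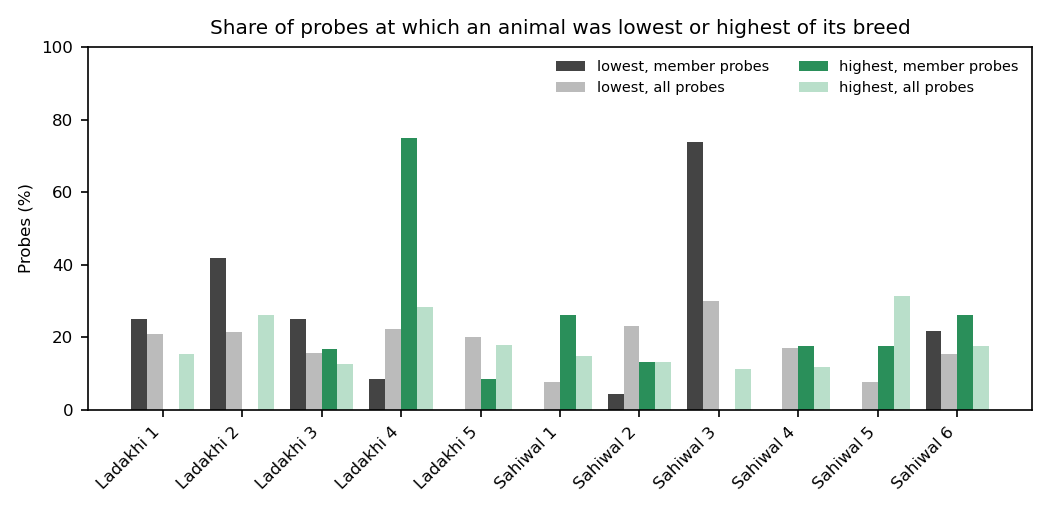
Share of probes (%) at which each animal had the lowest (dark) or the highest (green) level of its breed, for the member probes (12 in Ladakhi, 23 in Sahiwal) and, in paler bars, for all probes above background on at least 4 arrays of that breed. Sahiwal 3 was lowest at 73.9% of the member probes and at 29.9% of all probes.

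The measured genes whose pattern over the 11 animals was most like the mean of 7 member probes (those above background on all arrays and saturated on none, each breed centred on its mean) were ERP29, an endoplasmic reticulum protein (Pearson r = 0.97, Spearman rho = 0.91), BLA-DQB A_73_P362616 (0.93 and 0.93), MPST (0.91 and 0.80), YWHAQ (0.90 and 0.92) and ACADVL (0.90 and 0.87), out of 3898 probes compared. The points share their arrays and the dim Ladakhi signal, and r without the 2 animals farthest from the median was 0.95, 0.84, 0.80, 0.82 and 0.86. The 7 probes were themselves unlike: against the mean of the other 6, IFI30 A_73_101156 and CD74 A_73_116755 had r = 0.79, and BOLA-DRA A_73_P038356 and BOLA-DQA1 A_73_P245636 had -0.02 and -0.11. CD74 weighs most in the mean, with A_73_116755, A_73_P103191 and A_73_P106621 among the 7. A_73_116755 and A_73_P103191 share 46 bases, so the r of A_73_116755 is in part against an overlapping probe.

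Of 8 other class II genes 6 were on the array and 2 were measured, each represented by its brightest probe. DSB, a class II beta gene, was lower in Ladakhi by 0.95 (SE 0.36, adjusted p = 0.0459), a call that was lost with any of 8 of the 11 arrays left out (all but Ladakhi 4, Ladakhi 5 and Sahiwal 3). The DSB call was also lost under quantile (adjusted p = 0.128) and cyclic loess scaling (0.384), relative to their shifts (0.0615 and 0.0702), with outlier spots kept (0.0513), among measured probes alone (0.0515) and with the replicate block (0.088). BOLA-DQA2 A_73_P039756, which overlaps the BOLA-DQA1 probe shown above, differed by 0.35 (SE 0.34, adjusted p = 0.436). BOLA-DQA5 and BOLA-DYA were above background on 0 arrays. BLA-DQB A_73_P362616, singled out after its values were seen, had levels of -1.34, -2.40, -2.22, -0.29 and -0.91 in Ladakhi and -0.97 to 0.18 in Sahiwal. It was lower by 1.02 (SE 0.39, adjusted p = 0.0477), with overlapping groups, and the call was lost without any of Ladakhi 1, 2 and 3 and Sahiwal 1, 4, 5 and 6.

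The factors that bind class II promoters beside CIITA were mostly too dim in Ladakhi to compare. Of 7 genes, 2 were measured and 0 of them passed: RFXANK, a subunit of the RFX complex, differed by -0.12 (SE 0.25, adjusted p = 0.733), turning to 0.20 under quantile, 0.32 under cyclic loess and 0.40 under normexp values, and NFYC, a subunit of NF-Y, by 0.02 (SE 0.27, adjusted p = 0.953). A dimmer NFYC probe, above background on 0 Ladakhi arrays, was called higher there (adjusted p = 0.00174). Of the path from interferon gamma to CIITA, 3 of 6 genes were measured and 1 was lower: IRF1, a transcription factor induced by interferon, by 1.35 (SE 0.34, adjusted p = 0.00689), in all 11 fits with an array left out but not under cyclic loess scaling (-0.91, adjusted p = 0.0735). A second IRF1 probe, above background on 0 Ladakhi arrays, was called higher (adjusted p = 0.0381). The brightest probes of IFNGR2, a chain of the interferon gamma receptor (0.16), and of JAK1, its kinase (-1.13, or -0.07 without Ladakhi 1), did not pass. Other measured probes of these genes did: an IFNGR2 probe was lower by 1.42 (adjusted p = 0.00814), and JAK1 probes were higher by 0.81 and 0.91 (adjusted p = 0.0237 and 0.0128). The higher calls of NFYC and IRF1 came from probes without Ladakhi signal above background, so they give no direction.

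Of the lysosomal proteases that cut antigen and the invariant chain, 4 of 6 genes were measured and 1 was lower by its brightest probe. CTSB was lower in Ladakhi by 2.22 (SE 0.47, adjusted p = 0.00253), while CTSD (0.39), CTSH (-0.27) and LGMN (-0.23) did not pass. Other probes differed from these: a second measured CTSD probe was lower by 0.85 (adjusted p = 0.0303), and a CTSB probe above background on 0 Ladakhi arrays was called higher (adjusted p = 0.0298). That CTSB call has no Ladakhi signal above background behind it, so it gives no direction. For CTSH, 1 probe on 0 Ladakhi arrays was called lower and 1 on 1 Ladakhi array higher (adjusted p = 0.00136 and 0.0257). CTSS, the protease that trims CD74, was above background on 3 Ladakhi arrays and was lower by 2.83 (SE 0.67, adjusted p = 0.00442). Among the 3 genes that set class II turnover at the surface, CD83 was the measured one, with a difference of -1.78 (SE 0.81, adjusted p = 0.0914). It passed without Sahiwal 4 (-2.20, adjusted p = 0.0407) or Sahiwal 5 (-2.31, adjusted p = 0.0211).

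Markers of the cells that carry class II did not move as 1 group. Among the measured monocyte markers 3 of 4 were lower in Ladakhi, S100A8 by 2.21, LYZ by 1.81 and SPI1 by 1.36 (adjusted p = 0.00297, 0.00537 and 0.00793), while CSF1R differed by -0.07, turning to 0.19 under quantile, 0.38 under cyclic loess and 0.37 under normexp values. The SPI1 call was lost under cyclic loess (-0.93, adjusted p = 0.0983), and another CSF1R probe, above background on 2 Ladakhi arrays, was lower by 2.13 (adjusted p = 0.00941). The summed monocyte level over the 9 tested of 11 markers was 1.37 to 2.22 in Ladakhi and 2.52 to 4.43 in Sahiwal, without overlap. Among the B cell markers 1 of 2 measured was higher, BLK by 1.08 (adjusted p = 0.00626), and the summed level over 6 of 9 markers was 0.64 to 1.22 in Ladakhi and 0.22 to 1.32 in Sahiwal. CD79A differed by -0.12 and did not pass, turning to 0.09 under quantile and 0.33 under cyclic loess scaling. MS4A1, the B cell antigen CD20, was above background on 3 Ladakhi arrays and lower by 1.60 (limma adjusted p = 0.0169). A second MS4A1 probe, above background on 0 Ladakhi arrays, was also called lower (adjusted p = 0.00368). BANK1, on 2 Ladakhi arrays, was lower by 1.86 (adjusted p = 0.00505). These probes entered the test through Sahiwal. Of the 6 tested B cell markers, by their brightest probes, 2 were lower and 1 higher.

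Of the 2 measured dendritic cell markers IRF8 differed by -0.49 and TCF4 by 0.24, neither passing, and the summed level of 5 of 9 markers was -0.84 to -0.19 in Ladakhi and -0.64 to 0.46 in Sahiwal. Of the T cell markers 3 of 6 measured were higher in Ladakhi, CD2 by 2.46, CD247 by 0.96 and CD4 by 0.86, and CD3D differed by 1.08 without passing. CD3E and CD3G, chains of the T cell receptor complex, were not among the measured genes by their brightest probes, which were above background on 2 and 3 Ladakhi arrays and were lower by 2.45 and 1.83 (adjusted p = 0.0241 and 0.0130). A second CD3E probe, on 3 Ladakhi arrays, was higher by 2.74 (adjusted p = 0.000421), and a measured CD3G probe differed by 0.28 (adjusted p = 0.517). Of the 4 measured probes of LCK, a T cell kinase, 1 was higher, by 1.54 (adjusted p = 0.00425). The CD247 and CD4 calls were each lost with any of 7 arrays left out, among them Ladakhi 1, 2 and 4 and Sahiwal 2, 4 and 5 for both, and further Ladakhi 5 for CD247 and Sahiwal 6 for CD4. The NK and cytotoxic markers CST7 and GNLY were higher by 2.25 and 1.69, 2 of 4 measured, and NKG7 (1.17) and GZMB (-0.48) did not pass. Granulocyte markers had 0 measured genes of 7, and CSF3R was above background on 0 Ladakhi and 6 Sahiwal arrays. The Sahiwal CSF3R levels ran from -4.64 through a median of -3.84 to 0.59, where the Ladakhi detection limits lay between -4.25 and -3.03. With dim spots raised to the limit the CSF3R difference was -0.96 (limma adjusted p = 0.299) and did not pass. Of the red cell and platelet markers 2 of 8 were measured, HBB at -0.61 and PF4 at 0.38, and neither passed, though without Sahiwal 1 HBB did (-1.295, adjusted p = 0.0239). In bulk samples fewer cells of a type and less RNA per cell cannot be told apart, and the part of these markers in the class II values was not tested.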

How the data were processed

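Peripheral blood mononuclear cell RNA of 5 Ladakhi and 6 Sahiwal samples was hybridised to 1-colour Agilent bovine arrays. The deposited intensity values are, per the file headers, Feature Extraction processed signals (background subtracted, with a surrogate where a spot is not above background), from an Agilent scanner and version 12.0.1.1 for Ladakhi and an Axon GenePix scanner and version 9.5.3.1 for Sahiwal. A deposited value table of the authors holds log2 values, which rise with the signal. Its column medians are 1.6 to 2.31 in Ladakhi and -0.73 to 0 in Sahiwal, its scaling and centring are not given in the sources used here, and each of its 11 columns matched another array of the same breed than its name says, so it served only as an alternative and the numbering of samples is that of the scanner files.

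Control spots were dropped, 294 outlier spots set missing, and log2 signals taken relative to each array's 75th percentile over probes detected on all arrays, since most probes were not detected in Ladakhi. Breeds were compared with limma 3.58.1 in R 4.3.3 (2 groups, lmFit and eBayes, Benjamini-Hochberg over 17862 probes, threshold 0.05), a fit checked on simulated data. Saturated spots were kept. Every member probe is given. Of each other list the measured genes are named, at most the 4 with the largest difference, each by its brightest probe, and the 5 most similar genes by r. CTSS, MS4A1, BANK1, CSF3R, CD3E, CD3G, F3, KRT17, related DQ probes and further probes of listed genes were named after their values were seen. 1 B cell marker is not reported here. Members and lists were chosen with earlier results of these data known. Sample numbers shared by the breeds name different animals, and same-numbered samples did not deviate together (correlations from -0.05 to 0.02), so no pairing was used. Probe sequences are those of the files.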

Additional observations from a re-analysis of the deposited data

Results flagged for a closer look

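3 of 112 groups of samples, over the probes named, held a sample whose gap to its nearest neighbour was large for the range of its breed, where chance gives about 1 in 20. The level of Ladakhi 5 at BOLA-DRA A_73_107479 was -3.54, with the next Ladakhi value at 1.06. At CTSH A_73_117838 the Sahiwal 4 level was 1.13, with the next at 0.66. At BLK A_73_107641 the Ladakhi 2 level was 0.77, with the next at -0.03.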

How the results depend on the processing

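None of the 15 member probes called lower was called higher under any of the 27 alternatives. The 15 calls among 25 tested probes became 8 under cyclic loess and ranged from 11 to 17 with 1 array left out. The 5 calls among 13 measured probes became 4 when only measured probes were fitted. They became 1 under quantile, 0 under cyclic loess and 8 under normexp values, and ranged from 2 to 7 with 1 array left out. Those scalings shifted the median of all measured probes to 0.17, 0.41 and 0.27. Taken relative to that shift, which was chosen after seeing the data, they gave 1, 2 and 7. Sample numbers did not pair the animals, and with the replicate block 11 of 25 and 2 of 13 were called. Over all tested probes the split of higher and lower calls was 4362 and 3115 as reported, 1510 and 6433 under quantile, 1899 and 1849 under cyclic loess, 12354 and 1120 under normexp values, 10994 and 1573 with dim spots raised to the detection limit, 30777 and 3693 with no filter on dim probes, and 3853 and 2558 with the replicate block.

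Signs turned for several differences that had not passed the test and for BOLA-DMB A_73_P419141. Under quantile scaling CD74 A_73_116755 was 0.0329, RFXANK 0.201, LGMN 0.0505, CD79A 0.0941 and CSF1R 0.19. Under cyclic loess BOLA-DRA A_73_P038356 was 0.12, CD74 A_73_116755 0.23, RFXANK 0.32, CTSH 0.17, LGMN 0.22, CD79A 0.33 and CSF1R 0.38. Under normexp values BOLA-DQA1 A_73_P118256 was 0.17, CIITA 0.86, RFXANK 0.40, LGMN 0.27 and CSF1R 0.37. With dim spots raised BOLA-DQA1 A_73_P118256 was 0.35, BOLA-DMB A_73_P419141 0.30 and CIITA 1.71, where by construction the Ladakhi values become the higher Ladakhi limits. Relative to the shift, quantile gave 0.0299 for RFXANK and 0.0198 for CSF1R, and normexp 0.60 for CIITA, 0.13 for RFXANK, 0.00388 for LGMN, -0.15 for IFNGR2, 0.10 for CSF1R and -0.028 for PF4. CD74 A_73_P106621 was -0.0012 with the replicate block. With 1 array left out, CD74 A_73_P106621 ranged from -0.045 to 0.22, NFYC from -0.13 to 0.16, CTSH from -0.45 to 0.083, IFNGR2 from -0.01495 to 0.37, CD79A from -0.27 to 0.064, CSF1R from -0.26 to 0.13 and PF4 from -0.18 to 0.69. Where no value above shows it by construction, the cause was not tested. The dim Ladakhi arrays limit what can be seen: a spot not well above background there has only an upper bound, and the limits of these arrays lay between -4.25 and -3.03.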
